A study of Homo sapiens with 8 samples.

Results

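The unfolded protein response and the ATF4 response were examined through 33 genes in SET-2 cells, a human megakaryoblastic leukemia line derived from an essential thrombocythemia that had transformed. The genes were taken by symbol from a list. All 33 were in the deposited table of 25435 symbols and all 33 were among the 14898 genes that passed the filter on low counts. They comprised 23 genes of the endoplasmic reticulum (ER), from HSPA5 to SEC61B, and 10 genes of the ATF4 group, from ATF4 to PPP1R15A. The ER genes held 11 chaperones, co-chaperones and other lumenal proteins, 3 stress sensors with the transcription factor XBP1, and 8 genes of ER-associated degradation and protein import.

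Proteins that enter the ER are folded there by chaperones, and misfolded proteins are sent back to the cytosol for degradation. When misfolded proteins accumulate, the sensors IRE1 (gene ERN1), ATF6 and PERK (gene EIF2AK3) raise the folding capacity of the ER and slow protein synthesis. ATF6 and the spliced form of XBP1 switch on chaperone and degradation genes. PERK, and other kinases that sense lack of amino acids or of heme, phosphorylate the initiation factor eIF2, which lowers general translation and favours translation of ATF4. ATF4 in turn switches on genes of amino acid synthesis and uptake, of feedback and of cell death. Secretory cells and their precursors, the megakaryocyte lineage among them, make many proteins that pass through the ER.

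Messenger RNA was sequenced from 8 libraries, all of SET-2 cells that had received a virus carrying GFP and a guide RNA for gene editing. In 4 libraries the guide targeted ZRSR2, a splicing factor of the minor spliceosome, and the label for genotype was ZRSR2 KO. In 4 libraries the guide was non-targeting and the label was ZRSR2 wildtype. There were 2 guides per genotype, each used once in each of 2 experiments. Guides 1 and 2 gave replicates 1 and 2 in experiment 1, and replicates 3 and 4 in experiment 2. RNA was taken on day 20 after transduction for biological replicate 1 and on day 25 for biological replicate 2, and reading the experiment number as that replicate number is an assumption. A difference between experiments therefore cannot be told apart from one between days. Whether the transduced cells were sorted, or grown from single cells, is not given in the sources used here. Beyond the experiment number nothing says that libraries came from separate cultures, so p-values measure only the spread between these libraries.

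Library totals ran from 31106042 to 71521173 expected counts, and 17339 to 18398 genes had a count. Levels are given below as counts per 1000000 (CPM) on library sizes scaled by trimmed means of M-values. ZRSR2 stood at 29.4, 22.9, 28.3 and 18.7 CPM in knockout replicates 1 to 4 and at 37.9, 39.2, 39.7 and 41.1 CPM in non-targeting replicates 1 to 4. Its means of 24.8 ± 4.99 and 39.5 ± 1.34 CPM (SD, n = 4 each) did not overlap between genotypes, with p = 0.0286 by exact permutation of the 70 ways to split the libraries (two-sided), so the transcript was lower but present in every knockout library. With libraries exchanged only within an experiment the exact permutation p was 0.0556, the smallest that the 36 arrangements allow. All 13 markers of megakaryoblasts and erythroid cells were tested, and their summed level was 5802 to 6933 CPM. Of 5 lymphoid markers only CD79A passed the filter, with 10.3 to 11.5 CPM in experiment 1 and 32.4 to 51.1 CPM in experiment 2, while MS4A1 was at 0 in all libraries. Summed markers of monocytes and granulocytes were 207 to 268 CPM, nearly all of it LYZ, at 206 to 267 CPM. CD14 stood at 0.451 to 0.996 CPM, and CSF1R, MPO, ELANE and S100A8 did not pass the filter. Summed markers of epithelial cells and fibroblasts were 42.9 to 59.1 CPM. The part of these marker differences in the results below was not tested.

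The differences that passed lay between the experiments. Of the 33 genes, 18 passed the test of experiment 2 against experiment 1, with 8 higher and 10 lower in experiment 2. The largest differences were those of CRELD2 and SDF2L1, which fell to 41.3% and 49.0% of their level, and of DNAJB9, which rose to 242%. No gene of the 33 passed the test of ZRSR2 knockout against non-targeting, and ZRSR2 itself did not pass it either. Not passing this test therefore does not show that a gene was unchanged. A gene passed when its Benjamini-Hochberg adjusted p over all 14898 genes was below 0.05 by the quasi-likelihood test of edgeR. Across all tested genes 29.6% passed as higher and 28.6% as lower in experiment 2, so a share of 8 and 10 in 33 is near the background. For knockout against non-targeting, 0% of all tested genes passed, with 89 genes at an unadjusted p under 0.05. That fit had genotype as its sole term, so the difference between experiments counted in its spread. With the experiment added as a block, 690 genes had an unadjusted p under 0.05 and 0 passed (edgeR).

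**Figure D1:**
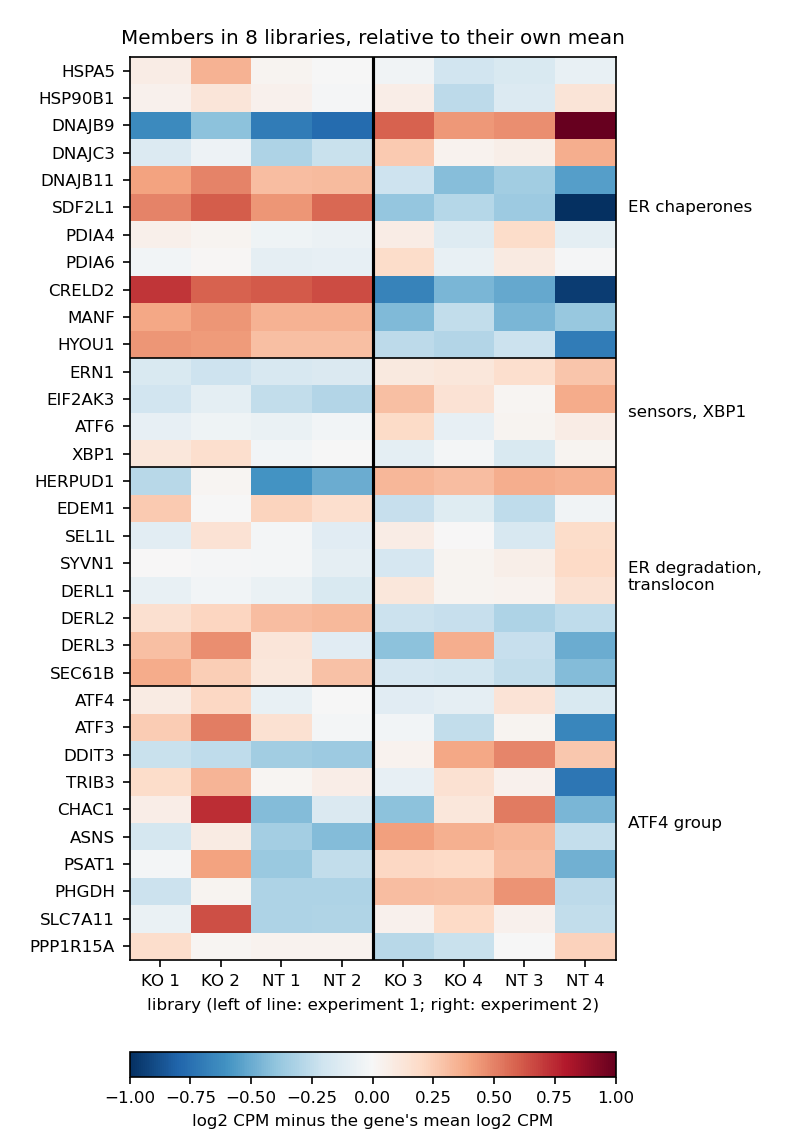
Level of each of the 33 genes (rows) in each of the 8 libraries (columns), as log2 CPM minus the gene's own mean log2 CPM over the libraries; red is above and blue below that mean. KO is ZRSR2 knockout and NT non-targeting, the number is the replicate, and the vertical line separates experiment 1 from experiment 2. CRELD2, SDF2L1, DNAJB11, MANF and HYOU1 are red on the left and blue on the right in all libraries, and DNAJB9 and DDIT3 show the reverse.

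The promoters were searched for the classical stress elements, and the sequences are set beside the values that follow. RefSeq promoters on GRCh38.p14 span 250 bases before to 50 bases after a gene's start, and 30 of the 33 genes matched. The ER stress response element (ERSE), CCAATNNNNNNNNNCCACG, binds the factor NF-Y at CCAAT and ATF6 at CCACG. It was found on either strand, with no mismatch, in 27 of 35116 promoters, or 0.0769%. Counted by gene it was in 25 of 27305, or 0.0916%, and in 5 of the matched members. The promoters below run 5′ to 3′ along the gene's strand, with the element in capitals and 20 bases kept on each side. Where it lies on the other strand, it reads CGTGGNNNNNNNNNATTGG, as in CRELD2 and in the copy of HSP90B1 nearest the start. They lie at chr9:125241371-125241429 on the minus strand for HSPA5, chr12:103930196-103930359 on the plus strand for HSP90B1, chr2:10812833-10812891 on the minus strand for PDIA6, chr22:49918534-49918592 on the plus strand for CRELD2 and chr22:28800583-28800641 on the minus strand for XBP1.
HSPA5: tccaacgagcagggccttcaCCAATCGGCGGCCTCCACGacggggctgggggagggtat
HSP90B1: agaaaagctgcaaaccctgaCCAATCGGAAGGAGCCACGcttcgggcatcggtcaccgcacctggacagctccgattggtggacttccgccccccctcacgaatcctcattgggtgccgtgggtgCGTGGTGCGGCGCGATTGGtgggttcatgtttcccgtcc
PDIA6: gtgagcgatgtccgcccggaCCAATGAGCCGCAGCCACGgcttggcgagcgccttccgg
CRELD2: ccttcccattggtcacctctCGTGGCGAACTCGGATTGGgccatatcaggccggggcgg
XBP1: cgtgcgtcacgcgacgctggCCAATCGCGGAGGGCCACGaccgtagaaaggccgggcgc

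A shorter form, ERSE-II, ATTGGNCCACG, was in 19 of 35116 promoters, or 0.0541%. Counted by gene it was in 19 of 27305, or 0.0696%, and in 3 members. It is shown for SDF2L1 at chr22:21642094-21642144 on the plus strand, HYOU1 at chr11:119057254-119057413 on the minus strand and HERPUD1 at chr16:56931946-56932055 on the plus strand. In SDF2L1 and in both copies of HYOU1 it reads CGTGGNCCAAT, since it lies on the other strand. The XBP1 core motif TGACGTGG was in 0.729% of promoters, or 0.927% of genes. It was in 1 member, HYOU1, where it overlaps the copy farther from the start. The capitals of HERPUD1 mark, in order, a C/EBP-ATF element on the other strand and the ERSE-II.
SDF2L1: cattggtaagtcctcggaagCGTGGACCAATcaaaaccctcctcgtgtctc
HYOU1: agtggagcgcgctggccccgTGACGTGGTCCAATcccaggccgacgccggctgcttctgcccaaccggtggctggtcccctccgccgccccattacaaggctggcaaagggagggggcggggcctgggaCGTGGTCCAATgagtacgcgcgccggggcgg
HERPUD1: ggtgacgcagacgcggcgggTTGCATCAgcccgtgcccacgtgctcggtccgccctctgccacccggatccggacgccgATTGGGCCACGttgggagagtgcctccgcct

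The members with an element differed in how they moved between experiments. Of the 5 members with an ERSE, CRELD2 and HSPA5 fell while HSP90B1, PDIA6 and XBP1 did not pass the test. Of the 3 with an ERSE-II, SDF2L1 and HYOU1 fell and HERPUD1 rose. A match is a description of the letters in this window and shows no binding. An element outside the window or with a mismatch would not have been found, so a member without a match may still have one.

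Among the chaperones, HSPA5 (BiP), the ATPase chaperone that also holds the sensors inactive, fell slightly. It stood at 1079 and 1061 CPM in the non-targeting and 1116 and 1354 CPM in the knockout libraries of experiment 1, guide 1 first here and throughout. Experiment 2 had 955 and 1010 CPM in the non-targeting and 1037 and 932 CPM in the knockout libraries. All 4 libraries of experiment 2 lay below all 4 of experiment 1. The fitted log2 fold change was −0.22 ± 0.07 (SE; adjusted p = 0.0233, edgeR). Without knockout replicate 2, the highest library, it was −0.152 with adjusted p = 0.113, and the call was also lost without knockout replicate 4 or either non-targeting library of experiment 1. In the non-targeting libraries alone it was −0.12 with adjusted p = 0.364, and in the knockout libraries alone −0.33 with adjusted p = 0.0326 (edgeR). HSP90B1 (GRP94), the ER member of the heat shock protein family that takes clients from BiP, ranged from 649 to 849 CPM and did not pass, with a log2 fold change of −0.09 ± 0.09. Such bulk values cannot tell fewer expressing cells from less RNA per cell.

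CRELD2, a secreted ER stress protein with disulfide isomerase activity, showed the clearest fall. It stood at 55.6 and 57.1 CPM in the non-targeting and 59.6 and 54.7 CPM in the knockout libraries of experiment 1. In experiment 2 the values were 25.5 and 18.8 CPM in the non-targeting and 22.9 and 26.5 CPM in the knockout libraries. The experiments did not overlap, and the genotypes overlapped within each experiment. The mean went from 56.7 ± 2.15 to 23.4 ± 3.44 CPM (SD, n = 4 each), a log2 fold change of −1.28 ± 0.11 (SE; adjusted p = 4.95e-06, edgeR).

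SDF2L1, a partner of ER DnaJ proteins that keeps misfolded clients soluble, fell by 1.03 ± 0.14 on the log2 scale (SE; adjusted p = 9.62e-05, edgeR). It stood at 27.3 and 30 CPM in the non-targeting and 28.4 and 30.6 CPM in the knockout libraries of experiment 1. Experiment 2 had 15.6 and 9.48 CPM in the non-targeting and 15.4 and 16.5 CPM in the knockout libraries. Non-targeting replicate 4 was the lowest library, and the other 3 of experiment 2 lay within 15.4 to 16.5 CPM. DNAJB11 (ERdj3), which binds SDF2L1 and brings clients to BiP, stood at 136 to 155 CPM in experiment 1 and 75.1 to 95.3 CPM in experiment 2, with a log2 fold change of −0.76 ± 0.08.

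MANF, a secreted survival factor that binds BiP, and HYOU1, which exchanges the nucleotide of BiP, fell as well. MANF was 93.8 and 93.7 CPM in the non-targeting and 96.3 and 99.7 CPM in the knockout libraries of experiment 1. It was 53.6 and 56.6 CPM in the non-targeting and 54.2 and 62.1 CPM in the knockout libraries of experiment 2. The values of the experiments were well apart, with a log2 fold change of −0.76 ± 0.07 (SE; adjusted p = 1.20e-05, edgeR). HYOU1 went from 592 and 593 CPM in the non-targeting and 651 and 644 CPM in the knockout libraries to 415 and 296 CPM and to 402 and 392 CPM. Its lowest library was again non-targeting replicate 4, and its log2 fold change was −0.72 ± 0.09 (adjusted p = 8.76e-05, edgeR).

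DNAJB9 (ERdj4) and DNAJC3 (p58IPK), a pair of BiP co-chaperones, moved the other way. DNAJB9 binds IRE1 and represses it through BiP. DNAJB9 was 2.59 and 2.47 CPM in the non-targeting and 2.70 and 3.16 CPM in the knockout libraries of experiment 1. In experiment 2 it was 5.82 and 8.60 CPM in the non-targeting and 6.33 and 5.67 CPM in the knockout libraries. No library of experiment 1 reached the lowest of experiment 2, and the log2 fold change was 1.27 ± 0.16 (SE; adjusted p = 6.88e-05, edgeR). DNAJC3 rose by less, with a log2 fold change of 0.36 ± 0.09 (adjusted p = 0.00427, edgeR). The disulfide isomerases PDIA4 and PDIA6 did not pass, with log2 fold changes of 0.02 ± 0.08 and 0.10 ± 0.07. PDIA4 was 201 to 231 CPM in 7 libraries and 250 CPM in non-targeting replicate 3.

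In all, 6 of the 11 chaperones and lumenal proteins fell, 2 rose and 3 did not pass, beside 28.6% of all tested genes that fell and 29.6% that rose. Their median log2 fold change was −0.225 against 0.003 over all tested genes. At least 2-fold differences that passed were DNAJB9 upward and CRELD2 and SDF2L1 downward. Over all tested genes 8.75% passed and rose at least 2-fold and 5.44% passed and fell at least 2-fold.

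**Figure D2:**
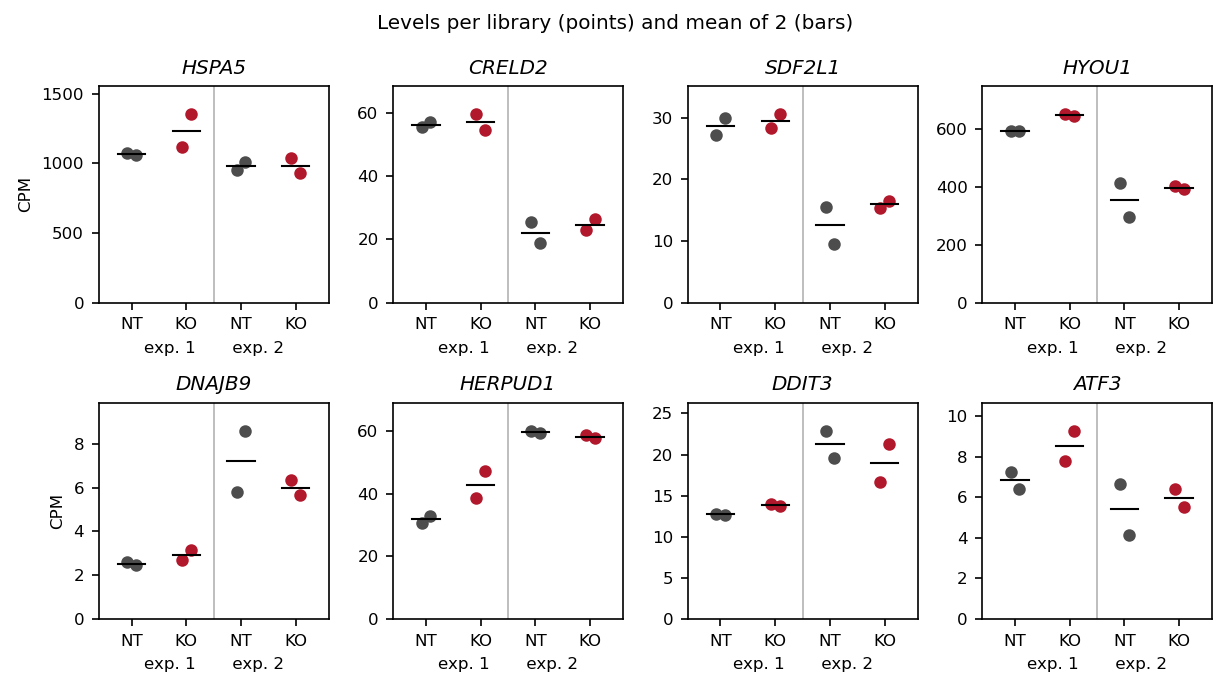
CPM (linear axes from 0) of 8 genes in each library (points) with the mean of the 2 libraries of a genotype in an experiment (bars); grey is non-targeting (NT), red is ZRSR2 knockout (KO), and the vertical line separates experiment 1 from experiment 2. CRELD2 lies at 54.7 to 59.6 CPM on the left and 18.8 to 26.5 CPM on the right, while HERPUD1 lies at 30.7 to 47.1 and 57.6 to 60.0 CPM.

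The sensors rose slightly or did not pass. ERN1, which encodes the RNase IRE1, was 21.6 and 21.8 CPM in the non-targeting and 21.7 and 20.9 CPM in the knockout libraries of experiment 1. In experiment 2 it was 27.1 and 29.2 CPM in the non-targeting and 25.7 and 26.0 CPM in the knockout libraries. The experiments did not overlap, and the log2 fold change was 0.33 ± 0.08 (SE; adjusted p = 0.00479, edgeR). EIF2AK3, which encodes the kinase PERK, was 21.8 and 21.1 CPM in the non-targeting and 22.7 and 24.2 CPM in the knockout libraries of experiment 1. It was 26.3 and 33.6 CPM in the non-targeting and 31.9 and 28.6 CPM in the knockout libraries of experiment 2. All libraries of experiment 2 were higher, with a log2 fold change of 0.42 ± 0.10 (adjusted p = 0.00344, edgeR).

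ATF6, the sensor that is cut to release a transcription factor, was 118 and 121 CPM in the non-targeting and 117 and 120 CPM in the knockout libraries of experiment 1. It was 126 and 130 CPM in the non-targeting and 141 and 117 CPM in the knockout libraries of experiment 2. Knockout replicate 3 stood above the other 3 knockout libraries, and the experiments overlapped, with a log2 fold change of 0.11 ± 0.07 (adjusted p = 0.22, edgeR). XBP1, whose messenger is spliced by IRE1 to make the active factor, was 207 and 211 CPM in the non-targeting and 229 and 237 CPM in the knockout libraries of experiment 1. It was 190 and 215 CPM in the non-targeting and 198 and 209 CPM in the knockout libraries of experiment 2. These ranges overlapped, with a log2 fold change of −0.12 ± 0.07 (adjusted p = 0.15, edgeR). Counts per gene do not separate the spliced from the unspliced messenger, nor do they show phosphorylation or cleavage of the sensors.

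Of the 8 degradation and import genes, 1 rose, 3 fell and 4 did not pass, where 29.6% of all tested genes rose and 28.6% fell. HERPUD1, a scaffold of the HRD1 ubiquitin ligase, was 30.7 and 33 CPM in the non-targeting and 38.5 and 47.1 CPM in the knockout libraries of experiment 1. In experiment 2 it was 60.0 and 59.3 CPM in the non-targeting and 58.5 and 57.6 CPM in the knockout libraries. The libraries of experiment 2 were all higher and lay close together, with a log2 fold change of 0.67 ± 0.08 (SE; adjusted p = 6.36e-05, edgeR). DERL2, part of the channel that returns proteins to the cytosol, fell by 0.50 ± 0.08 on the log2 scale. SEC61B, a subunit of the import channel, fell by 0.51 ± 0.09, and EDEM1, which marks misfolded glycoproteins, fell by 0.32 ± 0.08. SEL1L and SYVN1, which together form the core of the HRD1 ligase, did not pass, with log2 fold changes of 0.05 ± 0.09 and 0.06 ± 0.07. DERL1 (0.16 ± 0.07) and DERL3 (−0.35 ± 0.19) did not pass either, and DERL3 was low, at 1.84 to 3.58 CPM.

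Across the 23 ER genes, 5 rose and 9 fell, and the median log2 fold change was −0.092. By the same test 29.6% of all tested genes rose and 28.6% fell. All 4 libraries of experiment 2 lay above all 4 of experiment 1 in 6 of the 23 genes and below them in 9. Over all tested genes 28% lay wholly above and 28% wholly below. When the experiments were compared in each genotype alone, 9 of the 23 passed with the same sign in both, namely DNAJB9, DNAJB11, SDF2L1, CRELD2, MANF, HYOU1, HERPUD1, DERL2 and SEC61B. Of all tested genes 34% did so, while 46.9% passed in the non-targeting and 36.9% in the knockout libraries alone. With the knockout libraries alone DNAJC3, ERN1, EIF2AK3 and EDEM1 no longer passed, at adjusted p = 0.134, 0.0731, 0.0571 and 0.0621 (edgeR), with log2 fold changes of the same sign. Single libraries left out brought 3 more past the threshold, XBP1 without non-targeting replicate 4 (−0.171, adjusted p = 0.0217), DERL1 without non-targeting replicate 3 (0.192, adjusted p = 0.0202) and DERL3 without knockout replicate 4 (−0.569, adjusted p = 0.021).

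**Figure D3:**
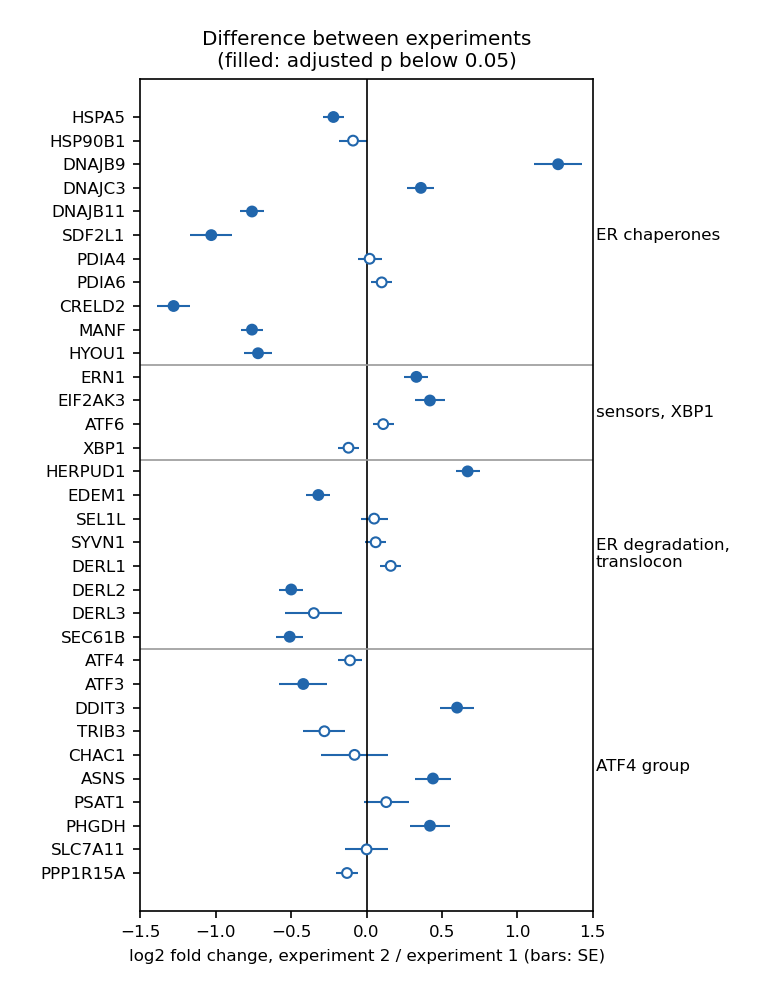
Fitted log2 fold change of each of the 33 genes for experiment 2 over experiment 1 (points) with its standard error (bars); filled points have an adjusted p below 0.05. The values run from −1.28 for CRELD2 to 1.27 for DNAJB9, and the sensors and the ATF4 group lie nearer 0 than these.

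Of the 10 genes of the ATF4 group, 3 rose, 1 fell and 6 did not pass, with a median log2 fold change of −0.041. Over all tested genes 29.6% rose and 28.6% fell, so the group did not exceed the background. The C/EBP-ATF element (CARE), TGATGNAA, to which ATF4 binds with a C/EBP partner, was in 1270 of 35116 promoters, or 3.62%. Counted by gene it was in 1217 of 27305, or 4.46%, and in 3 of the 9 group members that matched. It is shown in capitals for ATF3 at chr1:212565196-212565243 on the plus strand, CHAC1 at chr15:40953242-40953289 on the plus strand, where it reads TTNCATCA on the other strand, and ASNS at chr7:97872449-97872496 on the minus strand.
ATF3: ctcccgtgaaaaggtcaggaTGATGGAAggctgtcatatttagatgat
CHAC1: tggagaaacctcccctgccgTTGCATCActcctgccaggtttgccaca
ASNS: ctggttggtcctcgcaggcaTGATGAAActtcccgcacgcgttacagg

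ATF4 itself, which is controlled mostly at translation, was 381 and 401 CPM in the non-targeting and 426 and 464 CPM in the knockout libraries of experiment 1. It was 442 and 361 CPM in the non-targeting and 371 and 377 CPM in the knockout libraries of experiment 2. The experiments overlapped, with a log2 fold change of −0.11 ± 0.08 (SE; adjusted p = 0.258, edgeR). DDIT3 (CHOP), a transcription factor of stress-induced cell death, was 12.8 and 12.7 CPM in the non-targeting and 14.0 and 13.7 CPM in the knockout libraries of experiment 1. In experiment 2 it was 22.9 and 19.6 CPM in the non-targeting and 16.7 and 21.3 CPM in the knockout libraries. It was the 1 gene of the group whose experiments did not overlap, and it rose by a log2 fold change of 0.60 ± 0.11 (adjusted p = 6.41e-04, edgeR). It also was the 1 gene of the group that passed in each genotype alone with the same sign, which is 1 in 10 beside the 34% of all tested genes given above.

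ATF3, an early stress factor of the same family, was 7.25 and 6.43 CPM in the non-targeting and 7.78 and 9.28 CPM in the knockout libraries of experiment 1. It was 6.66 and 4.15 CPM in the non-targeting and 6.40 and 5.51 CPM in the knockout libraries of experiment 2. The ranges overlapped slightly, and the fall of 0.42 ± 0.16 on the log2 scale was near the threshold (adjusted p = 0.04, edgeR). It was lost when any library other than knockout replicate 1 or non-targeting replicate 3 was left out, the adjusted p then lying between 0.0544 and 0.123. TRIB3, a pseudokinase that restrains ATF4, did not pass, at −0.28 ± 0.14. It was 54.2 and 56.0 CPM in the non-targeting libraries of experiment 1, then 55.2 and 32.4 CPM in those of experiment 2. The knockout libraries held 60.8 and 67.5 CPM and then 50.4 and 59.5 CPM, so that non-targeting replicate 4 stood alone below the rest.

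The enzymes of amino acid synthesis ASNS and PHGDH rose. ASNS, asparagine synthetase, was 29.4 and 27.5 CPM in the non-targeting and 32.9 and 39.4 CPM in the knockout libraries of experiment 1. In experiment 2 it was 46.7 and 31.5 CPM in the non-targeting and 49.4 and 47.5 CPM in the knockout libraries. All but non-targeting replicate 4 exceeded experiment 1, with a log2 fold change of 0.44 ± 0.12 (SE; adjusted p = 0.00859, edgeR). PHGDH, which starts serine synthesis, was 116 and 116 CPM in the non-targeting and 124 and 146 CPM in the knockout libraries of experiment 1. It was 196 and 120 CPM in the non-targeting and 178 and 177 CPM in the knockout libraries of experiment 2. Again the same library fell among those of experiment 1, and the log2 fold change was 0.42 ± 0.13 (adjusted p = 0.0161, edgeR). Without knockout replicate 1 it was 0.365 with adjusted p = 0.0624. Without non-targeting replicate 3, its highest library, it was 0.222 with adjusted p = 0.0174, and without non-targeting replicate 4 it was 0.571 with adjusted p = 1.11e-04 (edgeR).

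The other 4 genes of the group did not pass. PSAT1, the next enzyme of serine synthesis, differed by 0.13 ± 0.15 on the log2 scale, and its mean in experiment 2 was 108% of that in experiment 1. CHAC1, which degrades glutathione, differed by −0.08 ± 0.22. SLC7A11, the cystine transporter, was at 97.8% of its level in experiment 1. PPP1R15A (GADD34), which restores translation by dephosphorylating eIF2, differed by −0.13 ± 0.07, and passed as lower in experiment 2 when non-targeting replicate 4 was left out (−0.195, adjusted p = 0.018, edgeR). Leaving out that library also brought PSAT1 past the threshold as higher (0.298, adjusted p = 0.0281). Without non-targeting replicate 3, TRIB3 (−0.493, adjusted p = 7.83e-04) and ATF4 (−0.180, adjusted p = 0.0205) passed as lower.

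The comparison of genotypes asks whether these genes differ between the ZRSR2 knockout and the non-targeting libraries. How far ZRSR2 function was lost was not tested. None of the 33 passed, also with the experiment as a block, where the smallest adjusted p was 0.914 for ASNS (edgeR), or with DESeq2 and the block, where 0.208% of all tested genes passed. With edgeR and the block, 690 of all tested genes had an unadjusted p under 0.05 and 0 passed. No member had all 4 knockout libraries above or below all 4 non-targeting libraries, which 0.302% and 0.376% of all tested genes did. Fitted values were above 0 in 25 of the 33, with a median log2 fold change of 0.064 against −0.003 over all genes, of which 48.7% were above 0. The ER genes lay near 0, with a median of 0.053 and a range of −0.13 to 0.38. HSPA5 differed by 0.11 ± 0.12, ATF6 by 0.00 ± 0.09 and XBP1 by 0.09 ± 0.09.

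The ATF4 group had a median log2 fold change of 0.247, with 8 of its 10 genes above 0. SLC7A11 differed most in p, at 0.43 ± 0.17 (SE; unadjusted p = 0.0373, adjusted p = 1, edgeR). It was 19.1, 31.2, 20.6 and 22.9 CPM in knockout replicates 1 to 4 and 16.1, 16.2, 20.6 and 16.8 CPM in non-targeting replicates 1 to 4. Knockout replicate 2 was the highest, and knockout replicate 1 lay below non-targeting replicate 3. PSAT1 followed at 0.37 ± 0.18, with 61.2, 82.2, 71.7 and 71.4 CPM in the knockout and 48.0, 52.5, 76.8 and 44.4 CPM in the non-targeting libraries. Its non-targeting replicate 3 exceeded all but 1 knockout library. ASNS differed by 0.32 ± 0.20. With the experiment as a block these 3 had unadjusted p of 0.0144, 0.0271 and 0.0132, and none passed after adjustment (edgeR).

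Other genes that ATF4 is known to control were taken from lists. Of 19 genes of amino acid synthesis and transport, 18 were above 0 with a median of 0.099, and of 14 tRNA ligases and related genes all 14 were, with a median of 0.147. None passed. Without non-targeting replicate 4 the counts were 11 of 19 and 12 of 14, and the median of the ATF4 group was 0.133. Without knockout replicate 2 that median was 0.154. The other 29 genes of ER folding had a median of −0.042, with 9 above 0.

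Values of the ATF4 group also differed between guides of the same genotype, and none of these differences passed. Non-targeting guide 2 was below non-targeting guide 1 in 9 of the 10 genes, with a median log2 fold change of −0.337, and 4 of the 10 stood below 0.05 before adjustment once the experiment entered as a block, as did 482 of the 14898 genes tested. The values ran from −0.41 for CHAC1 to 0.12 for PPP1R15A. In experiment 1 the mean log2 CPM of the group was 5.33 for non-targeting guide 1 and 5.35 for guide 2. In experiment 2 it was 5.76 and 5.25. The difference between the non-targeting guides thus lay in replicates 3 and 4 and was not seen in experiment 1. ZRSR2 guide 2 was above ZRSR2 guide 1 in 9 of the 10, with a median of 0.141. Against both non-targeting guides, ZRSR2 guide 1 had a median of 0.167 in the group and ZRSR2 guide 2 a median of 0.328. In each of the 4 guide comparisons 0% of all tested genes passed, with 13 to 60 at an unadjusted p under 0.05. In the blocked fit, ZRSR2 guide 2 against the non-targeting guides had 10 genes that passed, or 0.0671% of those tested, none of them a member. By DESeq2 with the block 1 member passed there, SLC7A11 (0.63, adjusted p = 0.0491), with 0.262% of all tested genes. ZRSR2 itself was lower with guide 2 than with guide 1, by −0.47 ± 0.16 (unadjusted p = 0.0259, adjusted p = 1, edgeR).

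Within experiment 1, both knockout libraries exceeded both non-targeting libraries in 9 of the 10 genes of the ATF4 group, all but PPP1R15A. Across all tested genes 18.5% showed this order and 17.9% the reverse. It also held for 13 of the 23 ER genes, and the reverse for DERL2. Log2 fold changes of the group in experiment 1 ran from 0.06 to 0.72, the latter for CHAC1 at 11.6 and 18.5 CPM against 8.22 and 10 CPM. HERPUD1 differed by 0.43 ± 0.12 (unadjusted p = 0.00446, adjusted p = 1, edgeR). None of the 33 passed, and 0% of all tested genes did, with 305 at an unadjusted p under 0.05. With no filter on low counts 40 of 20284 genes passed, or 0.197%, and 3 members were among them, CHAC1 (0.73, adjusted p = 0.038), PSAT1 (0.53, adjusted p = 0.0442) and SLC7A11 (0.65, adjusted p = 0.0356).

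Within experiment 2 the order was seen in 1 gene of the ATF4 group, ASNS, and the reverse in 1, PPP1R15A. Over all tested genes the shares were 11.2% and 12.3%. Among the ER genes DERL2 and SEC61B showed the order, and ERN1, HERPUD1 and SYVN1 the reverse. PPP1R15A was 206 and 214 CPM in the knockout and 249 and 292 CPM in the non-targeting libraries, a log2 fold change of −0.36 ± 0.10 (unadjusted p = 0.00521, adjusted p = 0.998, edgeR). None of the 33 passed, nor did any gene tested (0%), with 645 at an unadjusted p under 0.05. Without non-targeting replicate 3 the lone control of the experiment was replicate 4, assumed to vary like the other groups, and 5 members passed, with 1.03% of all tested genes. The members were SDF2L1 (0.75), HYOU1 (0.42), TRIB3 (0.76), PHGDH (0.57) and PPP1R15A (−0.47). Replicate 4 was the lowest of the 4 libraries of experiment 2 in 8 of the 10 genes of the ATF4 group.

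The difference between the knockout effects of the experiments was tested directly, and 0% of all tested genes passed, with 248 at an unadjusted p under 0.05. HERPUD1 (−0.47 ± 0.17, unadjusted p = 0.0179) and PPP1R15A (−0.43 ± 0.15, unadjusted p = 0.0147) were the 2 members under 0.05 before adjustment, at an adjusted p of 1 each (edgeR). The effects in the experiments are thus not shown to differ for any member.

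**Figure D4:**
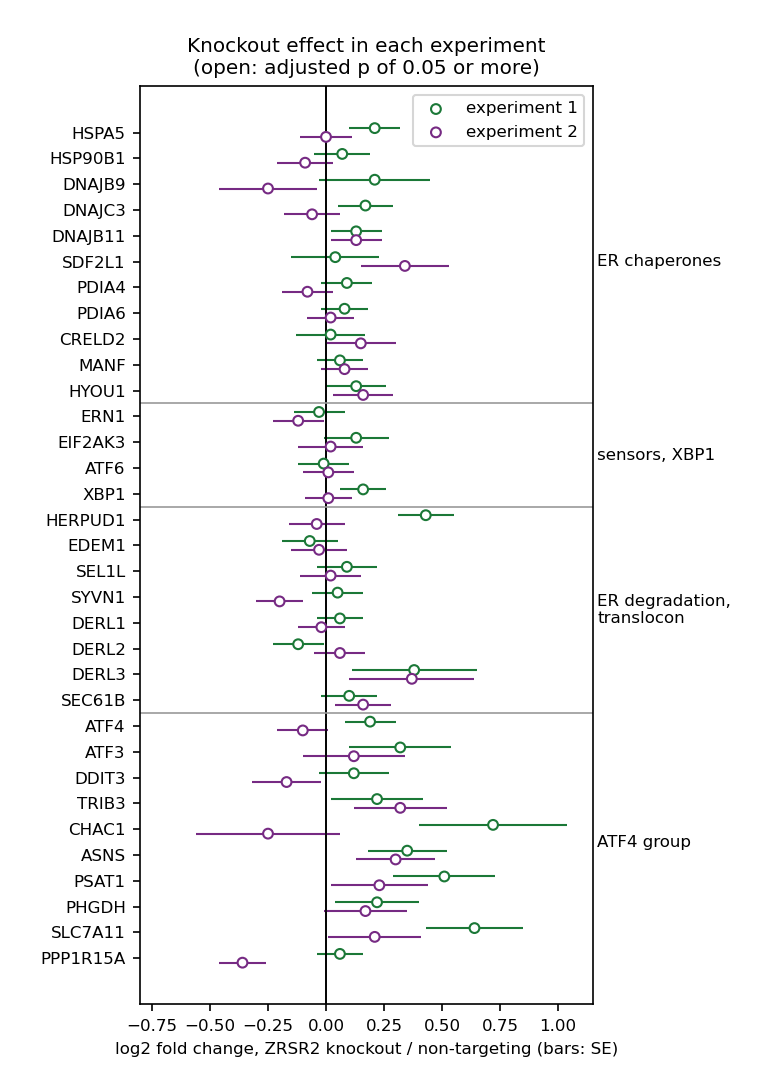
Fitted log2 fold change of ZRSR2 knockout over non-targeting for each of the 33 genes in experiment 1 (green) and experiment 2 (purple), with standard errors (bars); all points are open because none had an adjusted p below 0.05. In the ATF4 group all 10 green points lie right of 0, from 0.06 to 0.72, and the purple points spread from −0.36 to 0.32.

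The remaining genes of the pathways were examined for the same difference between experiments. Of all tested genes 29.6% rose and 28.6% fell. Counts per list near these shares, here and in the paragraphs that follow, are therefore not particular to the list. Beyond the 2 genes of largest difference in each list, genes named here were chosen after their values were seen, to account for counts of 5 or fewer. Among 14 other genes of ATF4 transcription and signalling, 8 rose and 2 fell, with a median log2 fold change of 0.800. VLDLR, a lipoprotein receptor, rose from 2.26 ± 0.654 to 11 ± 4 CPM (SD, n = 4 each). GDF15, a secreted stress cytokine, rose from 1.39 ± 0.200 to 5.93 ± 1.48 CPM. The 2 that fell were ATF5, a factor related to ATF4 (−1.67 ± 0.08, SE), and the cell cycle inhibitor CDKN1A (−1.04 ± 0.08).

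Of the other 29 genes of ER folding 14 rose and 2 fell. The oxidase ERO1LB (1.29 ± 0.15) and KDELR3, a receptor that retrieves escaped ER proteins (1.16 ± 0.11), led the rise. TXNDC5 (−0.38 ± 0.14) and the glycoprotein folding sensor UGGT1 (−0.24 ± 0.08) fell. Of 18 other degradation genes 6 rose, with the mannosidase-like EDEM2 at 0.64 ± 0.08. The 5 that fell were the ubiquitin-conjugating enzyme UBE2G2 (−1.16 ± 0.08), the segregase VCP (−0.46 ± 0.10) with its cofactors UFD1L (−0.52 ± 0.11) and NPLOC4 (−0.48 ± 0.11), and AUP1 (−0.32 ± 0.07). Of 26 genes of import and signal processing 6 fell, led by the signal peptidase subunit SPCS1 at −0.73 ± 0.07. The 3 that rose were the glycosylation subunit DDOST (1.14 ± 0.09), SEC63 (0.31 ± 0.10) and SEC11A (0.24 ± 0.08).

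Among 21 other kinases and transducers 8 rose and 5 fell. CREB3L1, a membrane-bound factor related to ATF6, rose from 44.0 ± 5.09 to 105 ± 21.7 CPM. WFS1, an ER membrane protein gene of very low level here, rose from 0.202 ± 0.145 to 0.766 ± 0.287 CPM. Of the 5 that fell, 4 belong to translation initiation, namely the eIF2 subunit EIF2S1 (−0.69 ± 0.08) and the exchange factor subunits EIF2B1 (−0.58 ± 0.07), EIF2B4 (−0.95 ± 0.08) and EIF2B5 (−0.35 ± 0.07). The other was MBTPS1, a protease that cuts ATF6 (−0.33 ± 0.06).

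Of the 19 other genes of amino acid synthesis and transport, the folate enzyme ALDH1L2 (1.38 ± 0.11), CTH (0.41 ± 0.15) and CBS (0.36 ± 0.13) rose. The folate enzyme MTHFD1L (−0.83 ± 0.10), the transporters SLC7A5 (−0.68 ± 0.09) and SLC1A4 (−0.42 ± 0.09) and GOT1 (−0.32 ± 0.11) fell. Of the 14 tRNA ligases and related genes, GARS (0.32 ± 0.09) and EPRS (0.23 ± 0.08) rose. WARS (−0.55 ± 0.12), VARS (−0.29 ± 0.11), YARS (−0.25 ± 0.08) and TARS (−0.23 ± 0.07) fell.

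Of 12 cytosolic heat shock genes 10 fell and 0 rose in experiment 2, with a median of −0.645. HSPA8, the constitutive cytosolic chaperone, went from 2928 ± 74.1 to 1012 ± 165 CPM. HSPH1, its nucleotide exchange factor, went from 191 ± 2.63 to 73 ± 12.5 CPM. Of 7 mitochondrial chaperones and proteases 0 rose and 4 fell, namely HSPD1 (−0.68 ± 0.08), its partner HSPE1 (−0.66 ± 0.17), HSPA9 (−0.47 ± 0.07) and DNAJA3 (−0.45 ± 0.10). HSPE1 was low, at 1.51 to 3.69 CPM, and its experiments overlapped. Of the 13 markers of megakaryoblasts and erythroid cells 3 rose and 2 fell, with a median of −0.004. PF4, among those that fell (−0.63 ± 0.21), was low, at 1.94 ± 0.745 and then 1.23 ± 0.109 CPM. Among the other markers that passed, CD79A differed by 1.80 ± 0.11, EPCAM by 1.58 ± 0.21 and KRT18 by −1.55 ± 0.16.

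**Figure D5:**
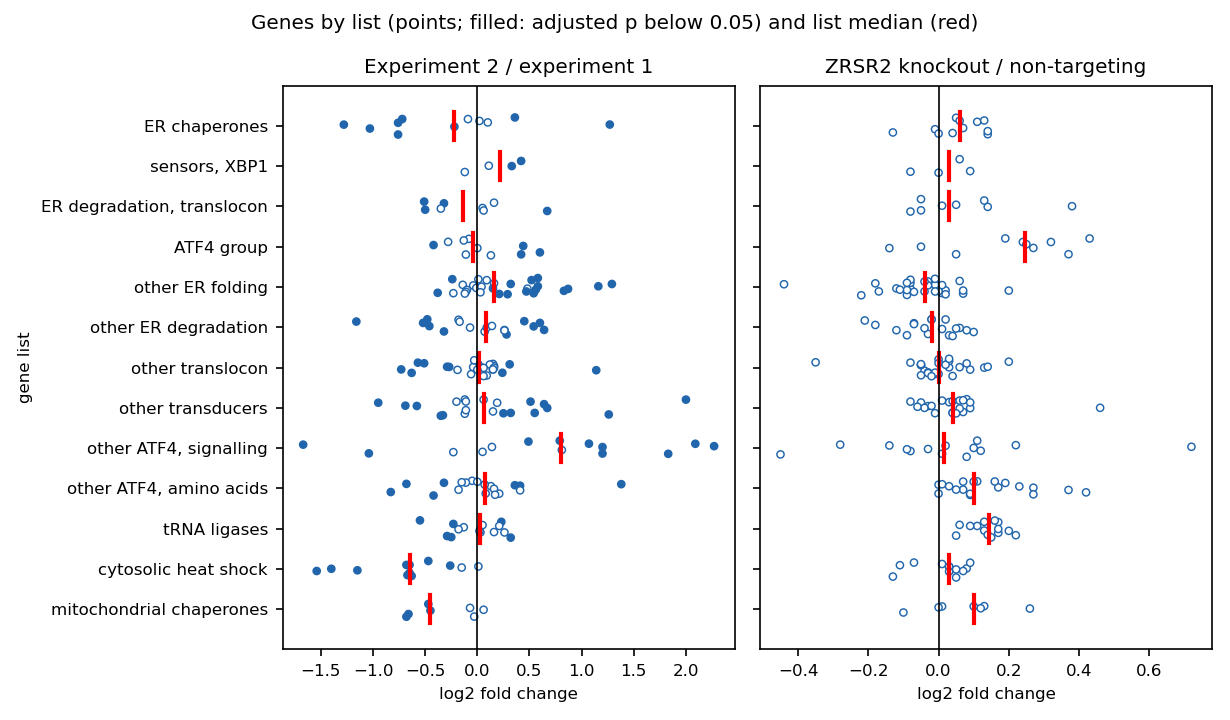
Log2 fold change of each tested gene (points, filled where the adjusted p is below 0.05) by list, with the list's median (red bar), for experiment 2 over experiment 1 (left) and ZRSR2 knockout over non-targeting (right); the horizontal scales differ. The medians on the left run from −0.645 for cytosolic heat shock genes to 0.800 for other ATF4 signalling genes, and no point on the right is filled.

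Reads of some members may include those of neighbours. On GENCODE 29, 15 of the 33 genes share exon positions with another gene, in 11 of them one that is also counted in the table. Among the genes above, these include CRELD2 with ALG12, DNAJB9 with PNPLA8 and THAP5, DNAJB11 with TBCCD1, DERL2 with MIS12 and DDIT3 with MARS and MBD6, all on the opposite strand. On the same strand, SYVN1 shares positions with FAU and MIR6751, and HSP90B1 with MIR3652. Whether strand was used in counting, and how shared reads were assigned, is not given in the sources used here, so these values are uncertain.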

How the data were processed

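RNA of 8 SET-2 libraries was measured. The authors deposited expected counts from RSEM for each gene symbol, per the labels and the table's name. The submitters' processing notes name cutadapt 1.11, RSEM 1.2.30 and the build hg19. Aligner, annotation and strand are not given in the sources used here. The expected counts were whole numbers already, and rounding changed 0 values. Columns were matched to samples by the library number in the titles.

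Genes were filtered with filterByExpr on genotype in edgeR 4.0.16 (R 4.3.3, limma 3.58.1), scaled with TMM factors and tested with quasi-likelihood F tests, adjusted by Benjamini-Hochberg over 14898 genes. Genotypes were compared with genotype as the sole term, experiments and effects within them in 4 cells of genotype by experiment, and guides in a fit of 4 guides. Standard errors were derived from the F statistic. DESeq2 1.42.0 was an alternative, as were DESeq2 size factors in edgeR, no count filter, at least 10 counts in every library, a block and leaving out each library. Figures used Python 3.11.15 with matplotlib 3.10.9. The fits were tested on simulated data. Intervals and p-values rest on reads without molecular identifiers.

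The experiment number pairs the libraries: gene by gene, deviations from the mean of a genotype had correlations of 0.678 to 0.846 in 8 same-experiment pairs and of −0.816 to −0.709 in 8 others. Because such deviations cancel within a genotype, the negative values follow largely from the positive ones and are no separate support. The common biological coefficient of variation was 0.29 without and 0.108 with the block.

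The members and lists were chosen with earlier results of these data known. Values in every library are given for HSPA5, ERN1, EIF2AK3, ATF6, XBP1, ATF4 and DDIT3. They are also given for up to 5 members of each set with the largest difference between experiments that passed. The 3 of smallest unadjusted p between genotypes and members with a library apart were treated likewise. Exceptions are DNAJB11 and PDIA4, given mostly by range, and PPP1R15A, given by library in experiment 2 alone. Of each other list the 2 genes of largest difference that passed are named. For 1 of these the result is not reported here. Promoters came from the RefSeq table on GRCh38.p14, and exon overlaps from GENCODE 29.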

Additional observations from a re-analysis of the deposited data

Results flagged for a closer look

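In a group of 4 libraries, a library was taken as apart when its gap to the nearest other, divided by the group's range, exceeded Dixon's critical value. Of 136 groups examined, each gene by genotype and by experiment and the library totals included, 11 had such a library. For independent groups, each with 1 common spread, chance would give about 1 in 20, or 6.8. The groups here share libraries, and those by genotype mix both experiments, so 11 cannot be judged against 6.8. Non-targeting replicate 4 stood apart in 5 of them. It was low in experiment 2 for SDF2L1 (9.48 CPM against 15.4 to 16.5), ASNS (31.5 against 46.7 to 49.4) and PSAT1 (44.4 against 71.4 to 76.8). Among the non-targeting libraries it was low for TRIB3 (32.4 against 54.2 to 56.0) and high for PPP1R15A (292 against at most 256 in the others).

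Non-targeting replicate 3 was high among the non-targeting libraries for PDIA4 (250 CPM against 206 to 213), PHGDH (196 against 116 to 120) and SLC7A11 (20.6 against 16.1 to 16.8). It was also the deepest library, with 71521173 expected counts against 31106042 to 36544665 in the other non-targeting libraries. Knockout replicate 3 was high among the knockout libraries for ATF6 (141 CPM against 117 to 120). Knockout replicate 1 was high in experiment 1 for PPP1R15A (281 CPM against 253 to 256). The part of depth in these values was not tested.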

How the results depend on the processing

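Over 55 results and 796 alternative values, 726 were kept. A fold change was kept if it had the same direction and side of the threshold. A count of members was kept if it was equal or within 1.5 times, which held for 154 of 159 counts. The threshold was lost in 22 values and gained in 9. The count of 18 members between experiments was 12 to 21. The replicate block on the experiment changed 0 calls of members in edgeR. Of the counts of members that passed, 5 moved by more than 1.5 times or from 0. Knockout within experiment 1 gave 3 with no count filter (CHAC1 0.73, PSAT1 0.53, SLC7A11 0.65), and knockout within experiment 2 gave 0 to 5 over single libraries left out. The comparison of ZRSR2 guide 2 with non-targeting gave 1 in DESeq2 with the replicate block. The ATF4 group had 2 between experiments in non-targeting libraries alone (DDIT3, ASNS) and 2 in knockout libraries alone (DDIT3, PPP1R15A). The cause was not tested. The difference of −14.7 CPM in ZRSR2 had p = 0.0556 by exact permutation when libraries were exchanged only within an experiment, as a replicate block chosen after seeing the data, and no smaller p was possible there. Signs turned in 34 values, none of which passed with the new sign. Between experiments, knockout libraries alone gave PDIA4 −0.064, SYVN1 −0.063 and PSAT1 −0.004. Non-targeting libraries alone gave ATF4 0.038, CHAC1 0.406, SLC7A11 0.211 and PPP1R15A 0.083. SLC7A11 was 0.004 with no count filter and 0.008 with at least 10 counts. Over single libraries left out the values were −0.051 to 0.081 for PDIA4, −0.044 to 0.133 for SEL1L, −0.089 to 0.298 for PSAT1, −0.372 to 0.109 for CHAC1 and −0.155 to 0.199 for SLC7A11. Between genotypes they were −0.142 to 0.018 for ERN1, −0.029 to 0.232 for EIF2AK3, −0.064 to 0.040 for ATF6, −0.017 to 0.103 for ATF4 and −0.203 to 0.126 for DDIT3, and DESeq2 with the block gave ATF6 −0.000. Fits that leave 1 library in an arm assume that it varies like the other groups.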
